A study of Mus musculus with 12 samples.

Results

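Ileocecal resection is the removal of the end of the ileum with the cecum. In mouse small bowel, the RNA changes that followed it were compared between mice given 2'-fucosyllactose (2'-FL, a fucosylated sugar of human milk) and controls. As counted, the change differed in 2038 genes by edgeR at an adjusted p under 0.05. After correction for transcript length and GC content, 0 genes passed. The measurement described here is the interaction: how much a gene changed from before to after resection with 2'-FL, less how much it changed in controls, on the log2 scale. It equals the arm difference (2'-FL minus control) after resection minus the arm difference before it, so each interaction was also traced to the Post groups or the Pre groups. All 12 libraries of the series entered it, and 13154 of the 35791 genes in the files held enough counts to be tested.

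Every library came from small bowel of a male C57BL/6 mouse, with 3 libraries in each of 4 groups. The labels give an age of 8 to 10 weeks for all groups. Whether this is the age at surgery or at collection was not established, so Pre and Post cannot be taken as matched in age. The control arm, without 2'-FL, was sampled before resection (Pre control) and after it (Post control). The treated arm was likewise labelled before (Pre 2'-FL) and after resection (Post 2'-FL), with the sugar given from day 0, when surgery was done, at 2.5 g/L. All mice were put on a liquid diet at day 7 after the operation and then moved to standard chow. The labels describe Pre 2'-FL as supplemented although the supplement began on the day of resection. They also date every bowel to 8 weeks after surgery, yet call 6 libraries pre-resection, and these library labels were followed here. They give neither the segment of bowel nor the hour of collection, and they do not say whether libraries with the same number came from 1 mouse, so the p-values measure the spread between these libraries.

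Bowel that remains after resection adapts by growth: crypts divide more, villi lengthen, and absorption per length of gut increases. Fucose on the intestinal surface and in milk sugars is used by gut bacteria, and the epithelial enzyme Fut2 adds it to surface glycans. An interaction asks of each gene whether this adaptation ran differently with the milk sugar. In bulk tissue, fewer cells of a type and less RNA per cell cannot be told apart. The 12 enterocyte markers checked, among them the fatty acid binding protein Fabp2, were all measured, and their summed level was between 27018 and 72631 CPM (counts scaled to the total of each library) in single libraries.

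The resection response differed between the arms for 2038 genes at an adjusted p under 0.05, which is 15.5% of those tested. In 982 genes (7.47%) the change with resection was higher in the 2'-FL arm, and in 1056 genes (8.03%) it was lower. The arms differed after resection in 5011 genes (38.1%), and before resection in 2 genes (0.0152%), Per2 and Bcmo1. The clock gene Per2, named after its values were seen, was lower in Pre 2'-FL by a log2 difference of -1.97 (adjusted p = 0.0128). It differed alike after resection, with a Post difference of -1.95, and its interaction was 0.02. The Post count was 3279 without Post control 3. The Pre count was 7 without Pre control 3, 17 without Pre 2'-FL 1, 0 without Pre 2'-FL 2 and 1 without Pre 2'-FL 3, and DESeq2 called 24.

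Among the 2038 called genes, 1999 were also called between the arms after resection and not before, 1 was called in both, 38 in neither, and 0 before resection alone. The Post groups did not overlap in 2010 of the called genes, against 50.7% of all genes tested. The Pre groups did not overlap in 254, against 9.22% of all genes tested. A pass in one group and a miss in the other is no test of which part is larger, so the mean of the 2 arm differences was tested as well. If it has the sign of the interaction the Post part is larger, and if it has the opposite sign the Pre part is larger. By this test the Post difference was larger in 1416 called genes (69.5%), 643 of them higher and 773 lower. The Pre difference was larger in 5 (0.2%), and in 617 (30.3%) the 2 parts could not be told apart. The median size of the Post difference in the 1416 genes was 1.395 on the log2 scale, against 0.085 for the Pre difference. The mean of the arm differences, on which this sorting rests, was called in 2797 genes (21.3%). That count was 1179 without Post control 3 and also fell by over 1.5 times without Post 2'-FL 1 (1712), Pre control 1 (1286), Pre control 2 (1434), Pre 2'-FL 2 (1388) or Pre 2'-FL 3 (1400).

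**Figure D1:**
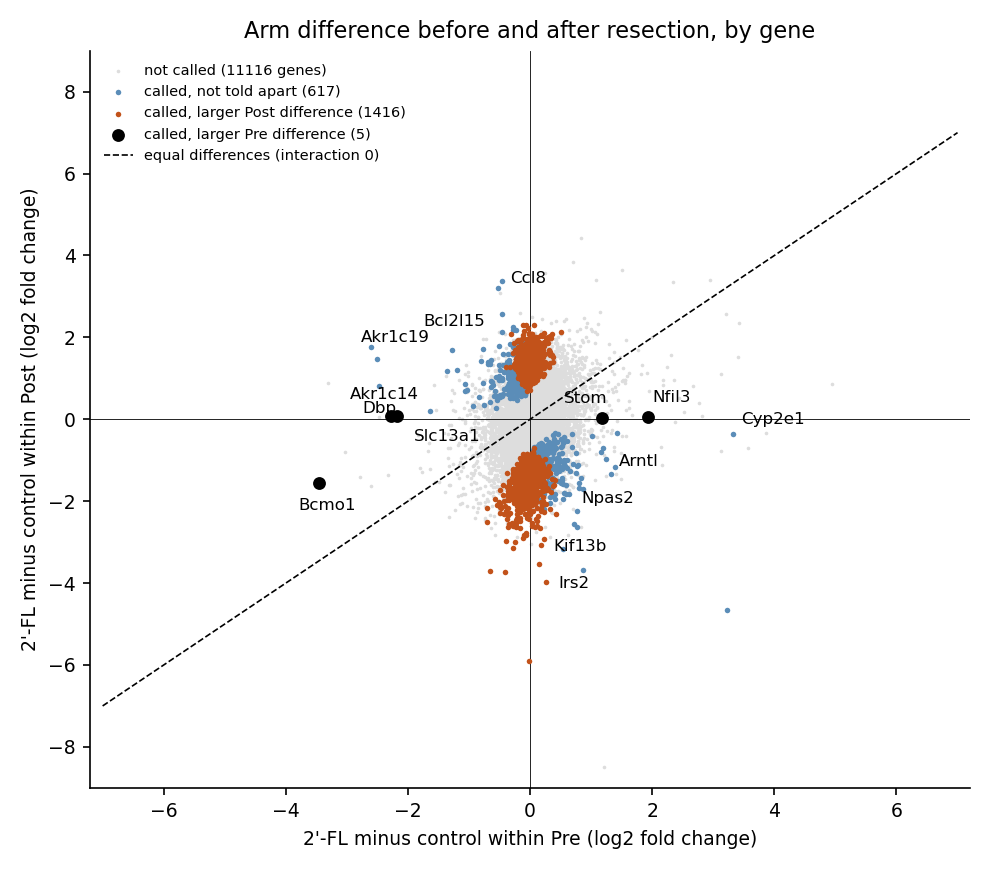
Arm difference (2'-FL minus control, log2 fold change) within Pre on the horizontal axis and within Post on the vertical axis, 1 point per tested gene, coloured by whether the interaction was called and which difference was larger. Most of the 2038 called genes lie near 0 on the Pre axis and away from 0 on the Post axis, and 5 genes, in black, lie away from 0 on the Pre axis.

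Transcript length moved with the interaction. Across genes, Spearman's rho of the interaction with length was -0.53, a description over 13055 genes that share the same 12 libraries. It was -0.497 for the Post difference and 0.12 for the Pre difference. In the tenth of genes with the shortest transcripts the median interaction was 1.016, with 475 genes called higher and 3 lower. In the tenth with the longest it was -0.739, with 8 higher and 335 lower. The median transcript length was 1239 bases among genes called higher and 5253 among genes called lower, against 3004 over all tested genes. Within single libraries, rho between length and a gene's level over its own mean was between 0.265 and 0.496 in the 6 Pre libraries, -0.037, -0.206 and 0.353 in Post control 1 to 3, and between -0.597 and -0.442 in Post 2'-FL.

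After each library was corrected for transcript length and GC content, 0 genes were called by edgeR's quasi-likelihood test. The smallest adjusted p was 0.0568, and 2646 genes (20.1%) had an unadjusted p under 0.05, against 4273 (32.5%) before the correction. Of the 2038 genes called as counted, 1973 (96.8%) kept their direction, 1250 had an unadjusted p under 0.05 and 464 had an adjusted p under 0.1, which 5.05% of all tested genes had. Their median size fell from 1.338 to 0.722. The Post difference was still called in 2861 genes (21.8%) with the correction, and the Pre difference in 2 (0.0152%). Corrected values stand beside many of the results below. Whether the relation to length is one of the tissue or of the RNA was not tested.

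Single libraries also moved the counts. Between 424 and 3024 genes were called when 1 of the 12 libraries was left out, the fewest without Post control 3 (264 higher and 160 lower) and the most without Post 2'-FL 2 (1437 higher and 1587 lower). Post control 3 is the Post control library whose relation to length was that of the Pre libraries. With the correction, 0 genes were called in 9 of the 12 such fits, and 888 were called without Post 2'-FL 2, 53 without Post control 2 and 1 without Pre control 1.

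**Figure D2:**
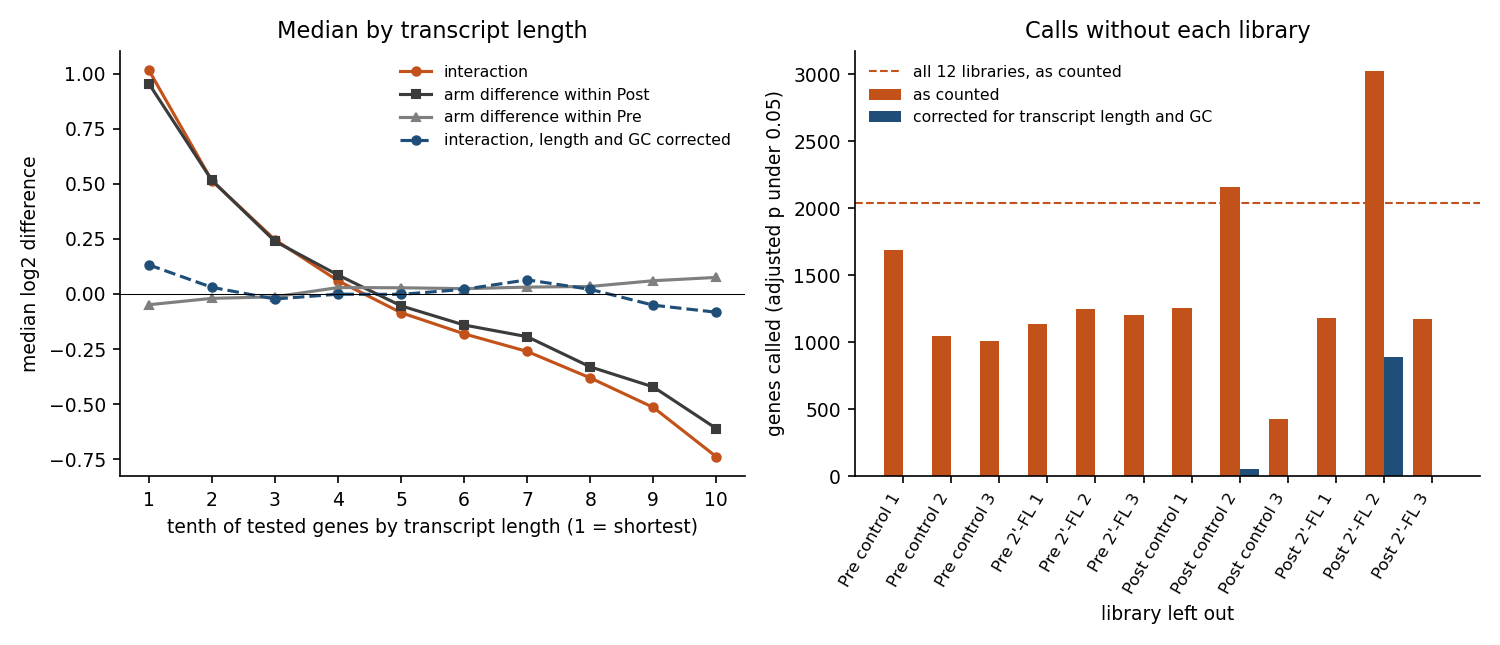
On the left, the median log2 difference (vertical axis) in 10 equal groups of the tested genes by transcript length (horizontal axis, shortest first), for the interaction, the 2 arm differences and the corrected interaction. The interaction falls from 1.016 to -0.739 along with the Post difference, while the Pre difference stays between -0.049 and 0.075. On the right, bars give the genes called (vertical axis) when the library on the horizontal axis is left out, with a dashed line at the 2038 called with all libraries.

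Among the genes that arose in the Post groups, the kinesin gene Kif13b (chr14:64652492-64809618, mm10; all gene positions are those of RefSeq on GRCm38.p6, the same build), a motor protein that carries vesicles along microtubules, had the smallest p of the interaction. It measured 22.1, 17.7 and 14.5 CPM in Pre control, 22.6, 18.3 and 20.2 CPM in Pre 2'-FL, 17.3, 19.7 and 30.5 CPM in Post control, and 1.89, 4.0 and 2.05 CPM in Post 2'-FL. The 3 Post 2'-FL libraries were below each of the other 9, which overlapped. The interaction was -3.23 ± 0.42 (SE; adjusted p = 0.0159), made of a Post difference of -3.06 ± 0.32 and a Pre difference of 0.17 ± 0.26. With resection the difference was 0.32 ± 0.26 in the control arm (adjusted p = 0.429), and the transcript fell by 2.91 in the 2'-FL arm (adjusted p = 3.14e-05). Corrected, the interaction was -2.46 (adjusted p = 0.0568, unadjusted p = 5.1e-06). The call held in all 12 fits that leave out 1 library, between -3.68 and -2.88.

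Irs2 (chr8:10984681-11008929), the adaptor that passes the insulin signal from its receptor to phosphoinositide 3-kinase, had the most negative interaction among the named genes that were called. It was at 27.0, 7.92 and 18.3 CPM in Pre control and at 25.6, 21.3 and 16.4 CPM in Pre 2'-FL. After resection it was at 11.9, 5.48 and 10.3 CPM in Post control and at 0.189, 0.770 and 0.744 CPM in Post 2'-FL. In these Post 2'-FL libraries 3 counts are 0.454, 0.442 and 0.488 CPM before TMM scaling, so that the size of the difference rests on few counts. The Post 2'-FL libraries stood apart from all others, and the Pre groups overlapped. The interaction of -4.22 ± 0.71 (adjusted p = 0.0159) came from a Post difference of -3.96 ± 0.58, against 0.26 ± 0.38 within Pre, and was -3.26 after correction. All 12 fits that leave out 1 library called it.

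The list of insulin and insulin-like growth factor signalling held 4 called genes of 18 (22.22%, beside 8.03% of all genes called lower), all lower: Irs2, the insulin receptor Insr, and Pik3ca and Pik3r1, the catalytic and regulatory subunits of phosphoinositide 3-kinase. Its median transcript length was 6164.5 bases, against 3004 over all tested genes. Of 1304 tested genes with transcripts of 4971 to 6478 bases, 242 were called lower. The list's median interaction was -0.989, against -0.028 over all tested genes, and -0.231 after correction, against 0.009. At an unadjusted p under 0.05, 6 members were lower and 0 higher as counted, and 3 lower and 2 higher after correction. Insr (chr8:3150922-3279649) had an interaction of -1.28 ± 0.31 and Pik3ca (chr3:32397065-32466112) one of -1.25 ± 0.29. Without Post control 3 neither was called, at -1.01 (adjusted p = 0.0715) and -0.99 (adjusted p = 0.0634). The larger difference was the Post one for Irs2 and Pik3ca, and the parts were not told apart for Insr and Pik3r1.

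The list of epidermal growth factor receptors and their ligands held 4 called genes of 14 (28.57%, beside 8.03% of all genes called lower), all lower: the receptors Erbb3, Egfr and Erbb2 and the ligand-shedding protease Adam17. The Post difference was the larger in 3 of these 4, and the parts were not told apart in 1. The list's median transcript length was 4498 bases. Of 1306 tested genes with transcripts of 4164 to 4970 bases, 192 were called lower. The list's median interaction was -0.451, and -0.342 after correction. Members went both ways: at an unadjusted p under 0.05, 5 were lower and 2 higher as counted. After correction 3 were lower and 2 higher. Erbb3 (chr10:128567523-128589635), a receptor that signals to phosphoinositide 3-kinase as a partner of the other receptors, was at 294, 152 and 124 CPM in Pre control and at 257, 208 and 172 CPM in Pre 2'-FL. It was at 231, 175 and 249 CPM in Post control and at 13.6, 67.9 and 22.3 CPM in Post 2'-FL. All 3 Post 2'-FL libraries were below every other library, with the middle one closest. Its interaction was -2.81 ± 0.64 (adjusted p = 0.0170), and -2.14 after correction. Egfr (chr11:16752203-16913907) had an interaction of -1.35 ± 0.32. Without Post control 3 the calls were lost, at -2.64 (adjusted p = 0.0534) for Erbb3 and -1.17 (adjusted p = 0.0621) for Egfr.

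**Figure D3:**
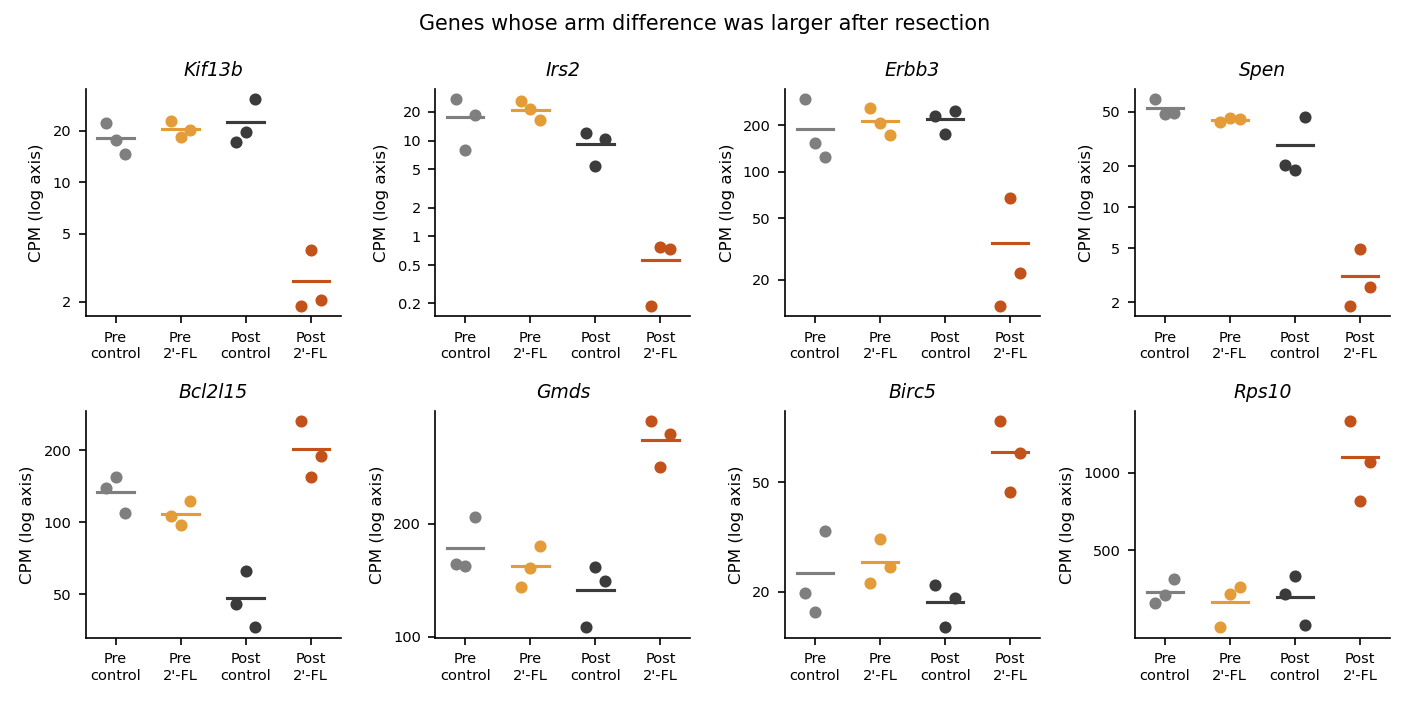
CPM on a log axis for 8 genes whose Post difference was the larger, 1 panel per gene, with the 4 groups on the horizontal axis, a point per library and a line at the group mean. For Kif13b, Irs2, Erbb3 and Spen the Post 2'-FL libraries lie under all others, as for Irs2 at 0.189 to 0.770 CPM, and for Bcl2l15, Gmds, Birc5 and Rps10 over the Post control libraries.

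Most genes of chromatin modification were lower. Of 30 tested, 21 were called lower and 0 higher, beside 8.03% of all genes called lower, and in all 21 the Post difference was the larger. The list's median was -1.453, with a median of -1.481 within Post and 0.025 within Pre. Its median transcript length was 8270 bases, and corrected for length and GC the median was -0.458, with 14 members lower and 1 higher at an unadjusted p under 0.05. Setd1b (chr5:123142040-123168630), a methyltransferase for lysine 4 of histone H3, was at 31.4, 19.1 and 23.3 CPM in Pre control, 27.6, 24.5 and 25.8 CPM in Pre 2'-FL, 13.1, 12.1 and 17.4 CPM in Post control, and 0.947, 3.54 and 2.23 CPM in Post 2'-FL. Its levels were lower in Post control than in Pre, and lower again in Post 2'-FL, without overlap. The interaction was -2.71 ± 0.44 (adjusted p = 0.0159) and -1.54 after correction.

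Further chromatin genes were called lower. The chromatin remodeller Chd7 (chr4:8690402-8868449) had an interaction of -2.72 ± 0.46. Kmt2d (chr15:98831669-98874077) and Kmt2b (chr7:30568855-30589056), further methyltransferases of the same histone residue, had -2.16 ± 0.34 and -1.68 ± 0.27, and these fell in size to -0.76 and -0.47 after correction. These 3 genes and Setd1b were called in each of the 12 fits that leave out 1 library.

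Spen (chr4:141467885-141538644), a nuclear co-repressor that binds RNA, was at 61.7, 48.5 and 48.7 CPM in Pre control and 41.9, 44.8 and 44.6 CPM in Pre 2'-FL. It was at 20.2, 18.6 and 46.1 CPM in Post control and 1.89, 4.93 and 2.60 CPM in Post 2'-FL. Post control 3 lay with the Pre libraries, and Post 2'-FL below all. The interaction was -2.88 ± 0.49 (adjusted p = 0.0159), and -1.59 after correction. Polr2a (chr11:69733997-69758633), the largest subunit of RNA polymerase II, had an interaction of -2.76 ± 0.65 as counted and -1.94 after correction, and without Post control 3 it was not called (-2.30, adjusted p = 0.0621). The nuclear long noncoding RNA Malat1 (chr19:5795690-5802672) had an interaction of -2.0 ± 0.41, with a Post difference of -1.63.

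The 12 lowest genes that the naming rule gave also include 3 further genes, beside Oas3 and Cyp2e1, which are described with their groups. Gltscr1 (chr7:15970671-16048146), a subunit of a chromatin remodelling complex, had an interaction of -2.76 ± 0.52. Zbtb34 (chr2:33406108-33431324), a zinc finger gene, had -2.72 ± 0.58, and P2ry4 (chrX:100588358-100594927), a nucleotide receptor of the epithelium, had -3.06 ± 0.72. Without Post control 3, Zbtb34 was at -2.40 (adjusted p = 0.0503) and P2ry4 at -2.85 (adjusted p = 0.0558), both past the limit. For P2ry4 the Post 2'-FL libraries were at 0, 0.308 and 0.186 CPM, so that its size rests on few counts.

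With the correction, other genes had the smallest p. On the lower side the 5 named were Kif13b, Atf7ip, Arntl, Taf15 and Snrnp48, each at a corrected adjusted p of 0.0568. Taf15 (chr11:83473073-83506743), an RNA-binding protein of the FET family, has a transcript of 2068 bases and was lower by more after the correction (-2.11) than before it (-1.88 ± 0.36). It was at 70.2, 65.9 and 57.5 CPM in Pre control, 74.8, 79.1 and 75.1 CPM in Pre 2'-FL, 69.3, 57.9 and 83.3 CPM in Post control, and 12.7, 31.9 and 22.9 CPM in Post 2'-FL. Only the Post 2'-FL libraries were low, and they did not reach any other library. Atf7ip (chr6:136518789-136610850), a cofactor of histone methylation, had -2.34 ± 0.36 as counted and -1.65 corrected. For Snrnp48 (chr13:38204914-38227663), a protein of the minor spliceosome, the values were -1.0 ± 0.31 and -2.0, and the call as counted held in 1 of the 12 fits that leave out 1 library, between -1.14 and -0.82, with adjusted p up to 0.137 without Post control 3.

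Among the genes that were higher, Bcl2l15 (chr3:103831036-103854618), a relative of the Bcl-2 regulators of cell death that is made in the gut, had the smallest p. It was at 139, 154 and 110 CPM in Pre control, 106, 97.3 and 122 CPM in Pre 2'-FL, 45.6, 62.7 and 36.4 CPM in Post control and 265, 154 and 190 CPM in Post 2'-FL. The Post groups did not overlap, and they lay on either side of the Pre groups. In the control arm it fell by 1.48 with resection (adjusted p = 0.00446), and in the 2'-FL arm it was higher by 0.90 ± 0.24 (adjusted p = 0.0058). The interaction was 2.38 ± 0.34 (adjusted p = 0.0159), 1.61 after correction (adjusted p = 0.0568), and it was called in all 12 fits that leave out 1 library. It was the single called member of 8 in the list of distal small bowel genes. That share is 12.5%, beside 15.5% of all genes called and 7.47% called higher. For Bcl2l15 the Post difference was the larger.

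The other genes with the smallest corrected p on this side were Oaf, Atg4d, Pex7 and Cuedc2. Cuedc2 (chr19:46329812-46338672), an adaptor in ubiquitin signalling, was at 14.1, 17.3 and 22.5 CPM in Pre control, 16.2, 14.5 and 15.9 CPM in Pre 2'-FL, 15.3, 17.2 and 11.7 CPM in Post control and 36.7, 29.4 and 39.4 CPM in Post 2'-FL. The Post 2'-FL libraries were above all of the other 9, which overlapped. Its interaction was 1.47 ± 0.30 as counted and 1.50 corrected. Pex7 (chr10:19860090-19907674), the receptor that brings a class of enzymes into peroxisomes, had 1.07 ± 0.28 and 1.53. Atg4d (chr9:21265205-21274837), a protease of autophagy, had 0.96 ± 0.25 and 1.83, and the secreted protein gene Oaf (chr9:43221278-43239816) had 1.47 ± 0.32 and 1.72. For Oaf the parts were not told apart, with a Pre difference of -0.51 and a Post difference of 0.96. Pex7 and Atg4d missed the threshold without Pre 2'-FL 3 (1.05 with adjusted p = 0.0513, and 0.94 with 0.0551) or without Post control 3 (1.09 with 0.0543, and 0.90 with 0.0539).

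Larger but more variable increases came from genes at low levels. Chchd6 (chr6:89383146-89595652), a protein of mitochondrial cristae, was between 1.60 and 3.18 CPM in 9 libraries and at 13.1, 6.31 and 8.37 CPM in Post 2'-FL, with an interaction of 2.42 ± 0.51. The nucleotidase Hddc2 (chr10:31313330-31328204) had 2.38 ± 0.54, and was not called without Post control 3 (2.28, adjusted p = 0.0503). Ly6d (chr15:74762056-74763567), a surface protein of the Ly6 family, had 2.40 ± 0.67, and its call was lost without Post 2'-FL 1, Post control 3, Pre 2'-FL 2 or Pre control 3, with an adjusted p up to 0.082. The processed pseudogene Rps15a-ps4 (chr4:132219893-132220589) had 2.29 ± 0.49, and its reads may be shared with the ribosomal gene Rps15a.

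Ccl8 (chr11:82115185-82116799), a chemokine that attracts monocytes, had the second highest interaction of the named genes that were called, 3.75 ± 1.09 (adjusted p = 0.0352). It was at 0.636, 0.305 and 2.97 CPM in Pre control, 0.604, 1.41 and 0.678 CPM in Pre 2'-FL, 0.770, 0.548 and 0.601 CPM in Post control and 11.2, 4.93 and 2.23 CPM in Post 2'-FL. Pre control 3 reached into the Post 2'-FL range. The call held in 5 of the 12 fits that leave out 1 library, and failed without Pre control 3 (2.29, adjusted p = 0.171), Pre 2'-FL 1 or 3, any 1 Post control library, or Post 2'-FL 1. Hsd11b1 (chr1:193221640-193264045), the enzyme that regenerates active glucocorticoid, had 2.54 ± 0.80 and was called in 2 of the 12, those without Pre control 1 and Post 2'-FL 2, with estimates from 2.22 to 3.02 and adjusted p up to 0.108.

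Most genes of protein synthesis and respiration were higher. Of 81 cytosolic ribosomal protein genes, 77 were called higher and 0 lower, beside 7.47% of all genes called higher; the other 4 were Rpl4, Rpl23, Rpl28 and Rps2. The Post difference was the larger in 73 of the 77 and not told apart in 4. The list's median was 1.464, with 1.462 within Post and -0.007 within Pre. Its median transcript length was 799 bases, and after correction the median was 0.617, with 46 members at an unadjusted p under 0.05.

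Rps10 (chr17:27630415-27635244), a protein of the small subunit, was at 312, 335 and 386 CPM in Pre control, 250, 338 and 358 CPM in Pre 2'-FL, 337, 397 and 256 CPM in Post control and 1586, 778 and 1096 CPM in Post 2'-FL. All 9 libraries of the other groups overlapped, and the Post 2'-FL libraries lay above them. The interaction was 1.93 ± 0.37 (adjusted p = 0.0160) and 1.48 after correction. Rps25 (chr9:44407714-44410406) and Rpl36 (chr17:56610094-56614246), of the small and the large subunit, had 2.10 ± 0.41 and 1.86 ± 0.34. All 3 were called in each fit that leaves out 1 library.

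In the respiratory chain, 30 of 37 subunits of complex I, which takes electrons from NADH, and 32 of 40 subunits of complexes II to V, which carry the electrons on and make ATP, were called higher and 0 lower. Of all genes tested, 7.47% were called higher. The medians of these lists were 1.246 and 1.215 as counted, and 0.405 and 0.462 after correction. The Post difference was the larger in 27 and 22 of the called subunits. Ndufb2 (chr6:39592565-39599843), a subunit of complex I, was at 31.8, 30.7 and 34.2 CPM in Pre control, 29.7, 29.8 and 32.5 CPM in Pre 2'-FL, 53.8, 62.5 and 34.6 CPM in Post control and 194, 140 and 157 CPM in Post 2'-FL. Post control 3 was the library nearest to the Pre groups. The interaction was 1.78 ± 0.30 (adjusted p = 0.0159), and 0.76 after correction. Atp5e (chr2:174461075-174464101), a subunit of the ATP synthase, had 1.91 ± 0.41, and Uqcrq (chr11:53427922-53430831), of complex III, had 1.72 ± 0.34 and kept 1.20 after correction. Cox7b (chrX:106015700-106022450), of complex IV, had 1.70 ± 0.36 and kept 0.36.

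The proteasome, which degrades tagged proteins, had 16 of 31 subunits called higher and 0 lower, with a median of 0.808. The share called is 51.61%, beside 7.47% of all genes called higher. After correction the median was -0.005, and 10 members were higher at an unadjusted p under 0.05. Over all genes, 1416 of 13154 were higher at that threshold. Psma7 (chr2:180036367-180042464), of the core particle, had an interaction of 1.67 ± 0.31 and Psmb6 (chr11:70525324-70527858), a catalytic subunit, 1.22 ± 0.25. Both were called in all 12 fits that leave out 1 library.

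**Figure D4:**
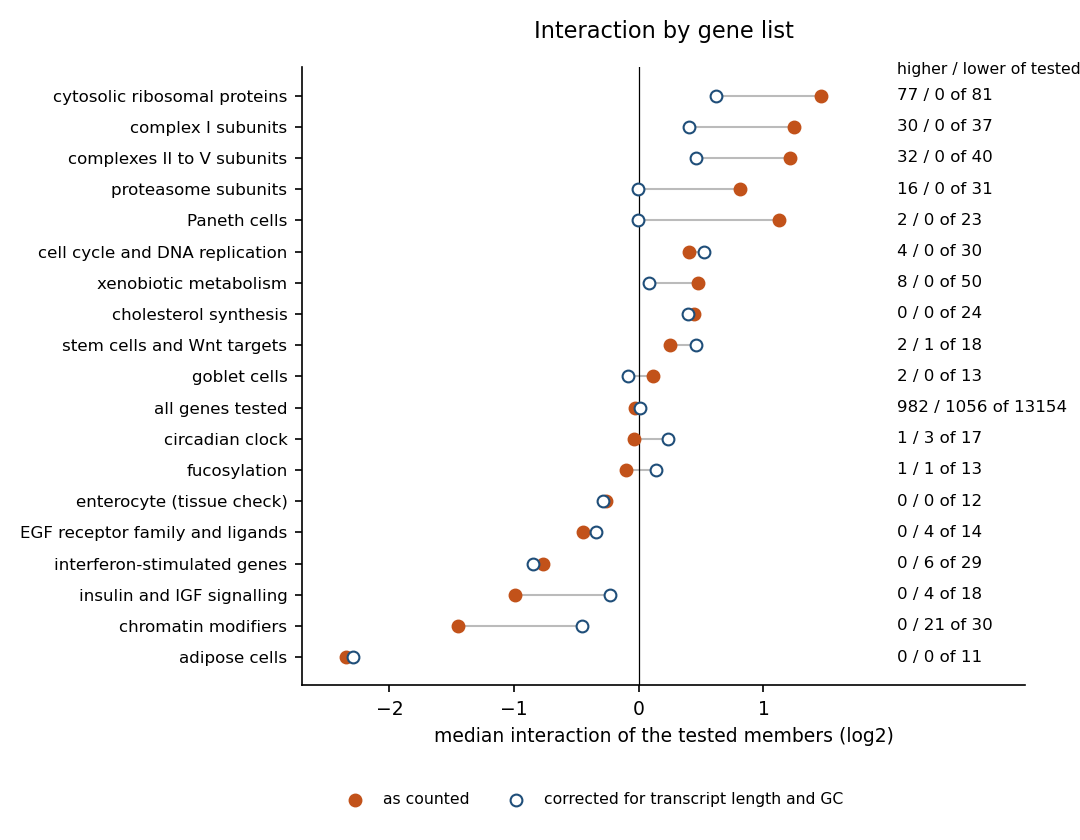
Median interaction (log2, horizontal axis) of the tested members of 18 gene lists and of all tested genes (rows), as counted (filled) and corrected for transcript length and GC (open), with the number called higher and lower at the right. Ribosomal and respiratory lists lie at 1.215 to 1.464 as counted and 0.405 to 0.617 corrected, while the adipose and interferon lists hardly move with the correction.

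Of 30 cell cycle and replication genes, 4 were called higher (13.33%, beside 7.47% of all genes) and 0 lower: Birc5, Ccne1, Rrm2 and Pcna. The share called in either direction was near the 15.5% of all genes tested. In all 4 the Post difference was the larger. The median was 0.402, and 0.525 after correction, with 7 members higher at an unadjusted p under 0.05 and 0 lower. Birc5 (chr11:117849237-117855743), survivin, which acts in chromosome segregation and blocks cell death, was at 19.8, 16.9 and 33.3 CPM in Pre control, 21.4, 31.1 and 24.6 CPM in Pre 2'-FL, 21.1, 14.8 and 18.9 CPM in Post control and 83.3, 46.2 and 63.6 CPM in Post 2'-FL. The Post 2'-FL libraries lay above all others. Its interaction was 1.67 ± 0.39 (adjusted p = 0.0178), 1.80 after correction, and the call held in all 12 fits that leave out 1 library. Ccne1 (chr7:38097984-38107490), the cyclin of entry into replication, had 1.67 ± 0.44, and was called in 8 of the 12, not without Pre control 3, Post control 3, Post 2'-FL 1 or Post 2'-FL 3, with an adjusted p up to 0.0657.

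Of 18 stem cell genes and Wnt targets, 3 were called (16.67%, near the 15.5% of all genes). Hopx and Smoc2, markers of crypt stem and progenitor cells, were higher, and Rnf43, which removes Wnt receptors from the surface, was lower. Their interactions were 1.35 ± 0.33, 0.98 ± 0.31 and -0.85 ± 0.26, and 0.46, 1.19 and -0.10 after correction. In all 3 the Post difference was the larger. Hopx (chr5:77086986-77115123) was not called without Pre control 3 (1.17, adjusted p = 0.0502) or Post control 3 (1.26, adjusted p = 0.0536). Smoc2 (chr17:14279490-14404790) was called in 3 of the 12 fits that leave out 1 library, between 0.74 and 1.21 with an adjusted p up to 0.111. Those 3 left out Pre control 1, Pre 2'-FL 2 or Post 2'-FL 2. Rnf43 (chr11:87663087-87735539) was called in 2, without Post 2'-FL 1 or 2, between -0.94 and -0.71 with an adjusted p up to 0.118.

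Of the secretory lineages, the Paneth list had 2 called of 23, both higher (8.7%, near the 7.47% of all genes called higher), and a median of 1.126 that became -0.007 after correction. They were Mmp7 (chr9:7692090-7699585), the protease that activates defensins, with 1.89 ± 0.60, and Spink4 (chr4:40920056-40931395), a protease inhibitor of secretory cells, with 1.86 ± 0.53. Mmp7 was called in 4 and Spink4 in 5 of the 12 fits that leave out 1 library, and neither was called without Pre control 2 or 3, Pre 2'-FL 1, Post control 1 or 3, or Post 2'-FL 1. Mmp7 also missed without Pre 2'-FL 3 or Post control 2, and Spink4 without Post 2'-FL 3. The lowest estimates, 1.37 and 1.54, came without Post 2'-FL 1 and Pre control 3, with adjusted p of 0.138 and 0.0804. For both Mmp7 and Spink4 the Post difference was the larger. The goblet list had 2 of 13 (15.38%, near the 15.5% of all genes called), Agr2 and the chemokine Ccl9. The Post difference was the larger in 1 of these, and the parts were not told apart in the other. Ccl9 (chr11:83572917-83578636) had 1.91 ± 0.47 and 1.61 after correction, and was not called without Pre control 3 (1.66, adjusted p = 0.0502) or Post control 3 (1.72, adjusted p = 0.0539).

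Interferon-stimulated genes encode sensors and effectors against viral RNA. Of 29 tested, 6 were called lower (20.69%, beside 8.03% of all genes) and 0 higher: Oas2, Oas3, Oasl2, Ddx58, Ifit1 and Stat2. The median was -0.768, and -0.844 after correction, with 13 members lower at an unadjusted p under 0.05 and 0 higher. Of the parts, Post was the larger for Oas3 and Ddx58, and the parts were not told apart for the other 4. The median was -0.373 within Post and 0.423 within Pre, opposite in sign. The summed level of the list was 974.7 to 1566 CPM over the 6 Pre libraries, 2208 to 2390 CPM in Post control and 1266 to 1882 CPM in Post 2'-FL.

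Oas3 (chr5:120753098-120777684), which makes the oligoadenylates that activate RNase L, was at 20.3, 18.0 and 23.1 CPM in Pre control, 43.8, 21.7 and 16.3 CPM in Pre 2'-FL, 51.2, 24.1 and 71.3 CPM in Post control and 4.17, 16.2 and 8.74 CPM in Post 2'-FL. The Post groups did not overlap, with Post control 2 and Post 2'-FL 2 closest, and the Pre groups overlapped. Its interaction was -2.74 ± 0.64 (adjusted p = 0.0178), and -2.01 after correction. Without Post control 3 it was not called (-2.30, adjusted p = 0.0595). Oasl2 (chr5:114896926-114912245), a relative of Oas3, had -2.58 ± 0.69 and -2.42 after correction. 7 of the 12 fits that leave out 1 library called it, not without Post 2'-FL 3, Post control 1, Post control 3, Pre 2'-FL 1 or Pre control 2, with an adjusted p up to 0.0873. Ifit1 (chr19:34640889-34650009), which binds foreign RNA caps, had -1.56 ± 0.43 and -1.86, and was called in 6. The misses left out Pre control 2 or 3, Pre 2'-FL 1, Post control 1 or 3, or Post 2'-FL 1, with an adjusted p up to 0.0806.

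Tap2 (chr17:34204479-34216321), the peptide pump of the MHC class I pathway, was the single called gene of 14 in that list, at -1.87 ± 0.53. That share is 7.14%, beside 8.03% of all genes called lower. For Tap2 the Pre and Post parts were not told apart. Leaving out 1 library at a time, 4 of 12 fits called it, between -2.44 and -1.54 with adjusted p up to 0.104; the 4 left out Post 2'-FL 2, Post control 2, Pre 2'-FL 3 or Pre control 1. Among immediate early genes, which respond within minutes to stimuli, 3 of 18 were called lower (16.67%, beside 8.03% of all genes): Fosl2, Jun and Zfp36. The share called in either direction was near the 15.5% of all genes. The Post difference was the larger in 1 of these 3 genes, and the parts were not told apart in 2. Fosl2 (chr5:32136472-32157840) had -1.76 ± 0.49 and Jun (chr4:95049036-95052222) -1.90 ± 0.51. They were called in 5 and 6 of the 12, and not without Post control 3 (-1.50 with adjusted p = 0.0987, and -1.92 with 0.0613). Other misses were without Pre control 3, Pre 2'-FL 1, Post 2'-FL 1 or Post 2'-FL 3 for both, without Pre control 2 or Pre 2'-FL 2 for Fosl2, and without Post control 1 for Jun.

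In 5 called genes the arm difference was larger before resection than after it. They are named as all members of that small class, Bcmo1 after its values were seen. Of the 5, only Bcmo1 was also called between the arms before resection. Akr1c14 (chr13:4048991-4090560), a reductase of steroid hormones, was at 123, 98.3 and 55.6 CPM in Pre control, 34.1, 10.8 and 11.7 CPM in Pre 2'-FL, 18.6, 7.86 and 11.9 CPM in Post control and 13.4, 13.9 and 13.6 CPM in Post 2'-FL. Pre control was high in all 3 libraries and did not overlap any other group. The Pre difference was -2.28 ± 0.42 and the Post difference 0.09 ± 0.43, for an interaction of 2.36 ± 0.59 (adjusted p = 0.0217) and 1.71 after correction. In the control arm the transcript fell by 2.85 with resection (adjusted p = 0.0029), and in the 2'-FL arm the difference was -0.48 ± 0.42 (adjusted p = 0.347). It was not called without Post control 3 (2.38, adjusted p = 0.0596).

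Slc13a1 (chr6:24088283-24168119), the sulphate transporter of the brush border, was at 127, 178 and 48.1 CPM in Pre control, 18.7, 42.8 and 16.4 CPM in Pre 2'-FL, 49.6, 48.4 and 49.7 CPM in Post control and 35.4, 69.6 and 50.0 CPM in Post 2'-FL. The Pre groups did not overlap, although 1 Pre control library was at the Post level. Its interaction was 2.25 ± 0.60 (adjusted p = 0.0252), and it was called in 8 of the 12 fits that leave out 1 library. Not called were those without Pre control 2 (1.88, adjusted p = 0.0598), Pre 2'-FL 1 (2.12, adjusted p = 0.0528), Pre 2'-FL 3 (2.01, adjusted p = 0.0557) and Post control 3 (2.32, adjusted p = 0.0659).

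Bcmo1 (chr8:117095851-117133720), the enzyme that splits beta-carotene into retinal, was lower in the 2'-FL arm at both times. It was at 7.63, 8.03 and 7.01 CPM in Pre control, 0.846, 0.469 and 0.678 CPM in Pre 2'-FL, 3.70, 5.30 and 4.21 CPM in Post control and 1.14, 2.31 and 0.930 CPM in Post 2'-FL. The arms overlapped at neither time, and the gap was wider before resection. In the Pre 2'-FL libraries 3 counts are 0.424, 0.517 and 0.530 CPM before TMM scaling. The size of the Pre difference therefore rests on few counts. The Pre difference was -3.45 ± 0.38 (adjusted p = 0.00331) and the Post difference -1.54 ± 0.36 (adjusted p = 0.0047), so that the interaction was positive, 1.91 ± 0.54 (adjusted p = 0.0319). 5 of the 12 fits that leave out 1 library called it, and estimates ran from 1.39 without Post 2'-FL 2 to 2.20. The other misses were without Pre control 2 or 3, Pre 2'-FL 2 or 3, or Post control 1 or 3, with an adjusted p up to 0.0858 over the 12.

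Stom (chr2:35313990-35337009), a membrane protein that regulates ion channels, was at 111, 117 and 118 CPM in Pre control, 189, 343 and 251 CPM in Pre 2'-FL, 256, 377 and 338 CPM in Post control and 337, 359 and 304 CPM in Post 2'-FL. Only Pre control was low. The interaction was -1.13 ± 0.31 (adjusted p = 0.0288), from a Pre difference of 1.17 ± 0.22 and a Post difference of 0.04 ± 0.22. Leaving out 1 library at a time, 4 of 12 fits called it, those without Pre 2'-FL 1, Post control 1, Post 2'-FL 1 or Post 2'-FL 2, and it ran from -1.26 to -0.82 with an adjusted p up to 0.0881. The fifth, Nfil3, belongs to the clock.

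**Figure D5:**
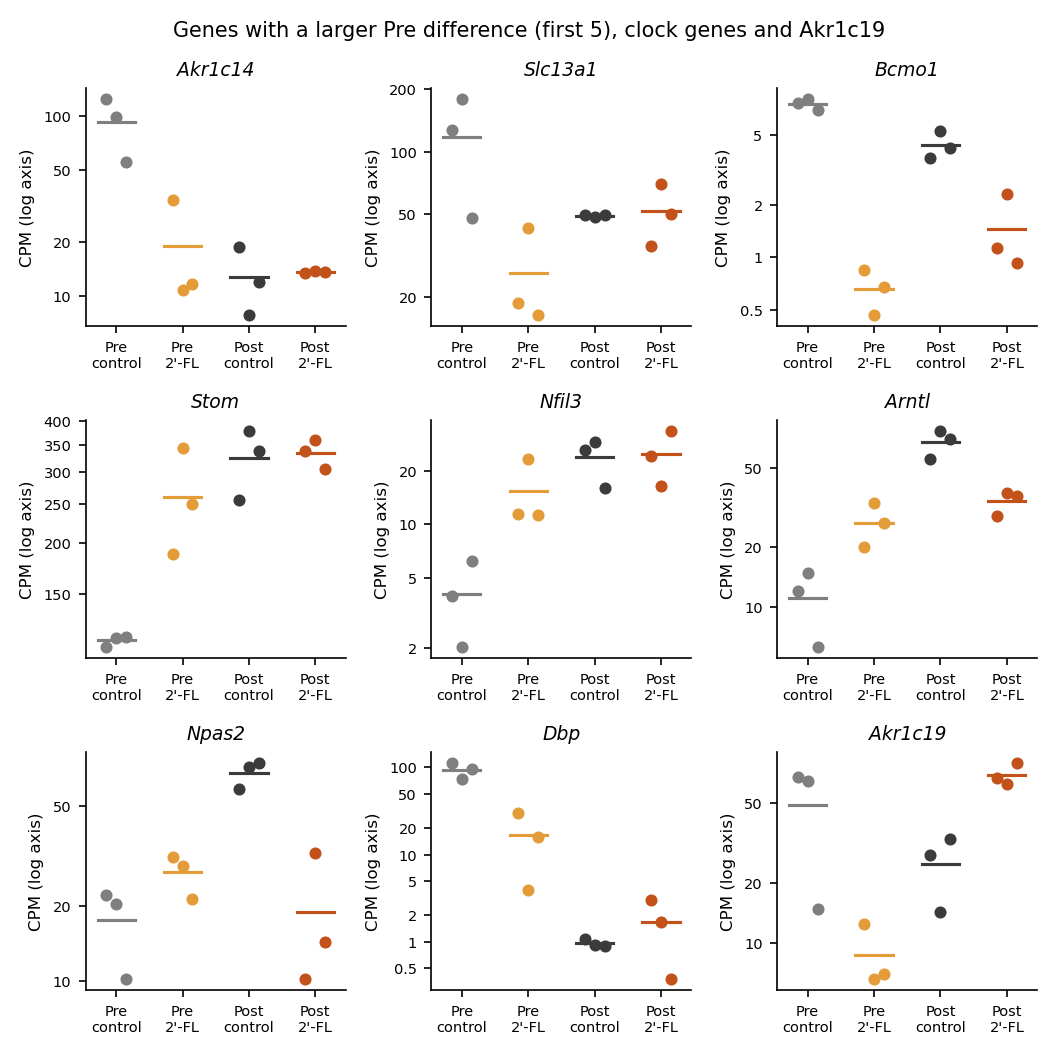
CPM on a log axis for the 5 genes with the larger Pre difference, 3 further clock genes and Akr1c19, 1 panel per gene, with a point per library and a line at the group mean. For Akr1c14 and Stom a single group, Pre control, lies apart (55.6 to 123 CPM and 111 to 118 CPM), and for Arntl the control libraries go from 6.30 to 14.8 CPM before resection to 55.5 to 76.2 CPM after it, while the 2'-FL groups overlap.

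The circadian clock is a daily feedback loop in which Arntl, paired with Clock or Npas2, switches on the Per and Cry repressors and output genes such as Dbp. A second loop, in which Ror activators and Nr1d repressors bind the same element, sets the level of Arntl and of Nfil3, which opposes Dbp at its targets. The level of each of these transcripts depends on the hour, which is not in the labels. Of 17 clock genes tested, 3 were called lower (Arntl, Npas2 and Nfil3) and 1 higher (Dbp), 23.53% beside 15.5% of all genes. The Pre difference was the larger in Nfil3, and the parts were not told apart in the other 3. After correction 3 were lower and 5 higher at an unadjusted p under 0.05.

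Arntl (chr7:113178471-113314126) was at 12.1, 14.8 and 6.30 CPM in Pre control, 20.1, 33.1 and 26.3 CPM in Pre 2'-FL, 55.5, 76.2 and 69.9 CPM in Post control and 28.6, 37.4 and 36.3 CPM in Post 2'-FL. The arms were apart at both times, in opposite order: 2'-FL was above control before resection and below it afterwards. The difference before resection was not called on its own. In the control arm Arntl was higher after resection by 2.60 ± 0.29 (adjusted p = 0.00058), and in the 2'-FL arm by 0.37 ± 0.27 (adjusted p = 0.263). The interaction was -2.23 ± 0.39 (adjusted p = 0.0159) and -2.17 after correction (adjusted p = 0.0568), from a Post difference of -0.98 ± 0.27 and a Pre difference of 1.25 ± 0.28, which were not told apart in size. All 12 fits that leave out 1 library called it.

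Npas2 (chr1:39193702-39363240) was at 22, 20.4 and 10.2 CPM in Pre control, 31.3, 28.9 and 21.3 CPM in Pre 2'-FL, 58.2, 71.7 and 74.0 CPM in Post control and 10.2, 32.3 and 14.3 CPM in Post 2'-FL. Post control was high in all 3 libraries, and the other groups overlapped. Its interaction was -2.46 ± 0.51 (adjusted p = 0.0162), -1.94 after correction, and held in all 12 fits that leave out 1 library. The Post difference was -1.83 ± 0.36 and the Pre difference 0.63 ± 0.36.

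Nfil3 (chr13:52967209-52982878) was at 3.94, 2.03 and 6.18 CPM in Pre control, 11.5, 23.4 and 11.4 CPM in Pre 2'-FL, 26.2, 29.2 and 16.0 CPM in Post control and 24.4, 16.5 and 33.5 CPM in Post 2'-FL. Pre control was the low group, and the Post groups overlapped. The interaction was -1.87 ± 0.56 (adjusted p = 0.0374), from a Pre difference of 1.93 ± 0.42 and a Post difference of 0.06 ± 0.37. 4 of the 12 fits that leave out 1 library called it, those without Post 2'-FL 3, Pre 2'-FL 3, Pre 2'-FL 1 or Pre control 3. Over the 12 it ran from -2.32 to -1.38, with an adjusted p up to 0.104.

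Dbp (chr7:45705100-45710203), an output gene of the clock, was at 112, 74.5 and 96.9 CPM in Pre control, 30.3, 3.91 and 16.1 CPM in Pre 2'-FL, 1.08, 0.914 and 0.902 CPM in Post control and 3.03, 1.69 and 0.372 CPM in Post 2'-FL. The Pre libraries were all above the Post libraries, and Pre 2'-FL lay between Pre control and Post. The interaction was 3.28 ± 0.98 (adjusted p = 0.0377), with a Pre difference of -2.47 ± 0.49 and a Post difference of 0.81 ± 0.84. Leaving out 1 library at a time, 5 of 12 fits called it. Misses were without Pre control 3, Pre 2'-FL 3, any 1 Post control library, Post 2'-FL 1 (2.64, adjusted p = 0.182) or Post 2'-FL 2.

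Because Arntl and Nfil3 are both known targets of the Ror and Nr1d factors, their promoters and those of Npas2 and Dbp were searched for 3 clock motifs on both strands, from 250 bases before to 50 after each RefSeq start on GRCm38.p6. The motifs were the E-box CACGTG bound by Arntl and its partners, the Ror and Nr1d element TAGGTCA or TGGGTCA, and the D-box TTATGTAA or TTACGTAA bound by Dbp and Nfil3. No match overlapped another. One of the 2 Arntl windows and the Nfil3 window each held 1 Ror and Nr1d element, and no E-box or D-box stood in any of the windows. Over all 32851 promoter windows of the same length, 6.45% hold this element, 7.15% the E-box and 1.06% the D-box. The stretches around the elements are shown because they are the sites that Arntl and Nfil3 have in common, with the element in capitals, reading 5′ to 3′ along the gene's strand. The Arntl stretch is at chr7:113207530-113207559 on the plus strand, with the element starting 30 bases past the start base, and the Nfil3 stretch at chr13:52981033-52981062 on the minus strand, with the element reversed and starting 12 bases before it.
Arntl: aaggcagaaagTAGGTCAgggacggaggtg
Nfil3: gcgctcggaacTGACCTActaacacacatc
A match is a description of the sequence and not a binding measurement.

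Of 50 enzymes of xenobiotic and steroid metabolism, 8 were called higher and 0 lower, a share of 16.0% that is near the 15.5% called over all genes. The parts were not told apart in 6 of the 8, the Pre difference was larger in Akr1c14 and the Post difference in Ugt2b35. The list's median was 0.477, and 0.086 after correction. Of the 8, 4 are aldo-keto reductases of the Akr1c cluster on chromosome 13. These genes are near-copies of each other, and the deposited counts divide some reads between genes, so single members are uncertain.

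Akr1c19 (chr13:4233503-4248361) had the highest interaction of the named genes that were called, 3.97 ± 0.65 (adjusted p = 0.0159), and 2.93 after correction. It was at 68.3, 64.9 and 14.7 CPM in Pre control, 12.3, 6.56 and 6.95 CPM in Pre 2'-FL, 27.4, 14.3 and 33.1 CPM in Post control and 66.9, 62.8 and 79.6 CPM in Post 2'-FL. The arms were apart at both times and in opposite order, with 2'-FL low before and high after. The Pre difference was -2.50 ± 0.48 and the Post difference 1.47 ± 0.45. On its own, the Pre difference was not called. With resection it was higher by 3.00 ± 0.48 in the 2'-FL arm (adjusted p = 0.000198), against -0.97 ± 0.44 in the control arm (adjusted p = 0.157). Akr1c13 (chr13:4191168-4205604) had 2.42 ± 0.41 and Akr1c12 (chr13:4268172-4279399) 1.75 ± 0.36, both with the same reversal of order. All 3 were called in each fit that leaves out 1 library.

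Ugt2b5 (chr5:87124946-87140340), an enzyme that attaches glucuronic acid, had 2.54 ± 0.79 (adjusted p = 0.0431). 4 of the 12 fits that leave out 1 library called it, those without Post 2'-FL 2, Post control 2, Pre 2'-FL 1 or Pre control 3, and it dropped to 1.64 without Post 2'-FL 3 (adjusted p = 0.124). Of 17 targets of NRF2, the factor of the antioxidant response, Nqo1 and Prdx1 were called higher (11.76%, beside 7.47% of all genes). The Pre and Post parts were not told apart for either. Nqo1 (chr8:107388225-107403205), a quinone reductase, was at 16.9, 16.8 and 23.8 CPM in Pre control, 15.2, 13.6 and 16.6 CPM in Pre 2'-FL, 29.3, 41.3 and 33.1 CPM in Post control and 111, 53.1 and 101 CPM in Post 2'-FL. Its levels were higher after resection in both arms, and more so in 2'-FL. The interaction was 1.69 ± 0.37 (adjusted p = 0.0162), 0.97 after correction, and held in each of the 12 fits.

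Of 13 genes of sugar fucosylation, Gmds was called higher and Slc35c1 lower (15.38%, near the 15.5% of all genes). For both the Post difference was the larger. Gmds (chr13:31819583-32338762), the first enzyme of GDP-fucose synthesis, was at 156, 155 and 208 CPM in Pre control, 136, 153 and 175 CPM in Pre 2'-FL, 106, 153 and 141 CPM in Post control and 376, 284 and 346 CPM in Post 2'-FL. The Post 2'-FL libraries were above all others. Its interaction was 1.49 ± 0.29 (adjusted p = 0.0160), with a Post difference of 1.33 ± 0.21, and 1.16 after correction. Slc35c1 (chr2:92452764-92460518), which carries GDP-fucose into the Golgi, had -1.14 ± 0.34. Leaving out 1 library at a time, 3 of 12 fits called it, those without Post control 1, Post 2'-FL 2 or Post 2'-FL 3, between -1.29 and -0.90 with an adjusted p up to 0.127.

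Fut2 (chr7:45648591-45666394), which adds the terminal fucose, was not called: the interaction was -0.98 ± 1.00 (adjusted p = 0.529). It was at 0.381, 0.914 and 1.55 CPM in Pre control, 1.21, 9.53 and 3.22 CPM in Pre 2'-FL, 1.23, 1.28 and 1.00 CPM in Post control and 4.73, 1.23 and 2.60 CPM in Post 2'-FL. The levels were low, and the arms overlapped at both times. Without Pre 2'-FL 2, the highest library, the sign turned (0.17).

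Lipid genes gave few calls. Npc1l1 (chr11:6211011-6230245), the sterol uptake protein of the brush border, was lower at -1.27 ± 0.39, with a Post difference of -1.62 ± 0.28. 2 of the 12 fits that leave out 1 library called it, those without Pre control 1 or Post 2'-FL 2, between -1.54 and -0.98 with an adjusted p up to 0.127. Nr1h3 (chr2:91184061-91202829), a nuclear receptor for oxysterols, was higher at 1.11 ± 0.32 and 1.24 after correction. It was called in 4, those without Post 2'-FL 2, Post control 2, Pre 2'-FL 1 or Pre control 3, between 0.98 and 1.33 with an adjusted p up to 0.0779. They were the called genes of 21 in lipid absorption (9.52%, beside 15.5% of all genes). The Post difference was the larger in 1 of them, and the parts were not told apart in the other.

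None of the 24 cholesterol synthesis genes was called, with 4 higher and 1 lower at an unadjusted p under 0.05 and a median of 0.441. Over all tested genes, 15.5% were called and 32.5% had an unadjusted p under 0.05. Mvd (chr8:122433596-122443422), of the mevalonate pathway, had the values closest to a call there, 1.23 ± 0.43 (adjusted p = 0.065). It was called without Post control 2 (1.63, adjusted p = 0.0215) or Post 2'-FL 2 (1.37, adjusted p = 0.042).

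Cgn (chr3:94760069-94787725), cingulin, which links tight junctions to the cytoskeleton, had an interaction of -1.47 ± 0.36, with -0.68 after correction, and missed the threshold without Pre 2'-FL 1 (-1.21, adjusted p = 0.0534) or Post control 3 (-1.30, adjusted p = 0.0659). Of visceral smooth muscle genes, 1 of 14 was called higher (7.14%, near the 7.47% of all genes), the actin-binding Tagln (chr9:45929628-45936058), at 1.67 ± 0.42. Without Post control 3 it was not called (1.68, adjusted p = 0.0554). For both Cgn and Tagln the Post difference was the larger.

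Of 15 myeloid genes, 2 were called (13.33%, near the 15.5% of all genes). Csf1r, the receptor of macrophage growth factor, was lower at -1.53 ± 0.48, and Tyrobp, the signalling adaptor of the same cells, higher at 1.44 ± 0.43. Csf1r (chr18:61105572-61131139) has a transcript of 3870 bases and Tyrobp (chr7:30413782-30417582) one of 564 bases. After correction they were at -0.98 and 0.51. For both the Post difference was the larger. Each was called in 4 of the 12 fits that leave out 1 library. For Csf1r the 4 left out Post 2'-FL 2, Post control 2, Pre 2'-FL 1 or Pre control 3, and the adjusted p reached 0.148. For Tyrobp they left out Pre control 1, Post control 1, Post 2'-FL 2 or Post 2'-FL 3, and it reached 0.0973.

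The lectins Reg3b (chr6:78370885-78373466) and Reg3g (chr6:78466269-78468874), which kill bacteria at the mucosal surface, were not called. Reg3b was at 2136, 3075 and 5676 CPM in Pre control, 3204, 8829 and 11000.1 CPM in Pre 2'-FL, 1515, 8800.0 and 1401 CPM in Post control and 64832, 18692 and 41207 CPM in Post 2'-FL. Post 2'-FL was high in all 3 libraries, and Post control 2 stood apart from its group. The interaction was 2.33 ± 0.99 (adjusted p = 0.118), and 1.13 after correction. Without Post control 2 it was called, at 3.80 (adjusted p = 0.0157). For Reg3g the interaction was 1.49 ± 1.01 (adjusted p = 0.320), and it was called in none of the 12 fits that leave out 1 library, from 0.59 without Pre control 3 to 2.68 without Post control 2 (adjusted p = 0.0668).

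Markers of the ileum, the segment that resection removes in part, varied between libraries before it. Fabp6 (chr11:43596040-43601562), the ileal bile acid carrier, was at 7.88, 166 and 0.475 CPM in Pre control, 0.483, 16.9 and 0.508 CPM in Pre 2'-FL, 0.308, 1.10 and 0.601 CPM in Post control and 0.947, 2.00 and 0.558 CPM in Post 2'-FL. Replicate 2 was the highest library in each group. The interaction was 4.20 ± 2.76 (adjusted p = 0.306), and between 0.43 and 7.80 when 1 library was left out. Fgf15 (chr7:144896532-144900953), the ileal hormone that limits bile acid synthesis, was at 12.3, 24.5 and 0.357 CPM in Pre control, 5.92, 22.3 and 6.78 CPM in Pre 2'-FL and at 0 counts in all 6 Post libraries, so no interaction can be given. The segment of the bowel behind each library was not tested.

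Markers of other cell types were measured beside these results. The adipose list had 0 of 11 genes called and a median interaction of -2.351, and -2.295 after correction. Its summed level was 334.8 to 406 CPM in Pre control, 346.7 to 1180 CPM in Pre 2'-FL, 372.3 to 429.4 CPM in Post control and 206.6 to 273.5 CPM in Post 2'-FL, with Pre 2'-FL 1 the highest library. Car3 (chr3:14863538-14872381), an enzyme abundant in fat, was at 219, 18.8 and 40.3 CPM in Pre 2'-FL and had an interaction of -4.27 ± 1.40 (adjusted p = 0.052). The lipid droplet protein Plin1 (chr7:79721164-79732904) had -3.91 ± 1.35 (adjusted p = 0.0616). Both were called without Pre 2'-FL 2 (-4.67, adjusted p = 0.0416, and -4.25, adjusted p = 0.0437) or Post control 1 (-4.74, adjusted p = 0.0325, and -4.36, adjusted p = 0.0416). Both were smaller in size without Pre 2'-FL 1, at -2.55 for Car3 (adjusted p = 0.175) and -2.57 for Plin1 (adjusted p = 0.130). They were at -2.18 (adjusted p = 0.381) and -3.02 (adjusted p = 0.309) without Post control 3.

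Cyp2e1 (chr7:140763819-140774990), an oxidase of ethanol and ketones, had its highest level in the same library as the adipose list. It was at 1.91, 7.01 and 2.97 CPM in Pre control, 91.0, 5.31 and 24.2 CPM in Pre 2'-FL, 1.69, 2.74 and 7.92 CPM in Post control and 5.30, 2.46 and 2.42 CPM in Post 2'-FL. Pre 2'-FL 1 was the highest library by far. The Post groups overlapped for Cyp2e1, whereas the adipose sum was lower in every Post 2'-FL library than in Post control. The interaction was -3.69 ± 1.19 (adjusted p = 0.0488), with a Pre difference of 3.32 ± 0.80. The Pre and Post parts were not told apart in size. Without Pre 2'-FL 1 it was -2.17 (adjusted p = 0.148), and it was called in 1 of the 12 fits that leave out 1 library, the one without Pre 2'-FL 2. Without Post control 3 it was -2.64 (adjusted p = 0.242). The part of the adipose markers in this result was not tested.

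Several lists held no called gene: enterocyte identity (0 of 12), proximal small bowel (0 of 10), tuft cells (0 of 10), sugar digestion and transport (0 of 10), MHC class II (0 of 10), T cells and intraepithelial lymphocytes (0 of 19), endothelium (0 of 15) and extracellular matrix (0 of 22). By edgeR, members at an unadjusted p under 0.05 in these lists numbered 6, 4, 5, 3, 1, 0, 2 and 2. Of all genes tested, 15.5% were called and 32.5% had an unadjusted p under 0.05. Fabp2 (chr3:122895072-122899506), of the enterocyte list, was closest to a call, at 1.71 ± 0.56 (adjusted p = 0.051), and it was called without Pre control 3 (1.93, adjusted p = 0.0499), Pre 2'-FL 1 (2.23, adjusted p = 0.0336), Post control 2 (1.95, adjusted p = 0.044) or Post 2'-FL 2 (1.78, adjusted p = 0.0477). With all libraries, DESeq2 called it (1.77, adjusted p = 0.00269), as did voom, RLE scaling, no filter, the replicate block (1.79, adjusted p = 0.0411) and the removal of Esp38 and Lars2. Its corrected value was 0.44 (adjusted p = 0.703). A miss here does not show that the arms responded alike.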

How the data were processed

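RNA-seq was measured in 12 libraries of mouse small bowel, 3 in each of 4 groups taken from the labels. The authors deposited estimated counts per gene and library, in 36186 entries, of which 15.2% to 20.5% were fractional. Per the submitters' processing notes, the build was mm10 and DESeq was used. The counter and the annotation are not given in the sources used here. Totals were 5663275 to 9385266 counts, so that 3 counts in the shallowest library are 0.53 CPM, and such limits cover counting error only.

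Entries of 1 gene were summed, giving 35791 genes, and counts were rounded to whole numbers. Genes were kept by filterByExpr (13154), scaled by TMM and fitted with edgeR 4.0.16 in R 4.3.3 over all 12 libraries by group, with 8 residual degrees of freedom. P-values come from the quasi-likelihood test with Benjamini-Hochberg adjustment over all genes. A gene is called at an adjusted p under 0.05. Values after ± are standard errors. CPM use TMM-scaled library sizes. The correction for transcript length and GC content used a spline with 4 degrees of freedom per library as offsets (prior count 2). Longest GENCODE M21 transcripts gave the length of 13055 genes. The script was tested on simulated data.

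Alternatives were DESeq2 1.42.0, limma 3.58.1 voom, RLE scaling, no filter, the replicate number as a block, removal of 2 abundant genes (Esp38 and Lars2) and each library left out. Named genes are the 12 largest called changes each way with a group mean of at least 5 CPM, 5 each way with the smallest corrected p, up to 3 per list by p, 3 of Pre origin, and Fut2, Reg3b, Reg3g, Fabp6 and Fgf15. The members and lists were chosen with earlier results of these data known.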

Additional observations from a re-analysis of the deposited data

Results flagged for a closer look

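Each result here is a difference between the arms in the change with resection, tested by the interaction with edgeR at an adjusted p under 0.05. The change was higher in the 2'-FL arm in 982 genes and lower in 1056. The values are interactions on the log2 scale.

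Among regulators in the nucleus, the interaction was -2.71 for Setd1b, -2.72 for Chd7, -2.16 for Kmt2d, -1.68 for Kmt2b, -2.88 for Spen, -2.76 for Polr2a, -2.76 for Gltscr1, -2.72 for Zbtb34, -2.34 for Atf7ip, -1.88 for Taf15, -1.0 for Snrnp48 and -2.0 for Malat1. Among genes of signalling and immediate response, the interaction was -4.22 for Irs2, -1.28 for Insr, -1.25 for Pik3ca, -2.81 for Erbb3, -1.35 for Egfr, -1.90 for Jun, -1.76 for Fosl2 and -3.06 for P2ry4. Among interferon and antigen genes, the interaction was -2.74 for Oas3, -2.58 for Oasl2, -1.56 for Ifit1 and -1.87 for Tap2. Among other genes that were lower, the interaction was -3.23 for Kif13b, -1.47 for Cgn, -1.14 for Slc35c1, -1.27 for Npc1l1, -1.53 for Csf1r, -0.85 for Rnf43, -1.13 for Stom and -3.69 for Cyp2e1. Among clock genes, the interaction was -2.23 for Arntl, -2.46 for Npas2, -1.87 for Nfil3 and 3.28 for Dbp. Among ribosomal genes, the interaction was 2.10 for Rps25, 1.93 for Rps10, 1.86 for Rpl36 and 2.29 for Rps15a-ps4. Among genes of respiration and the proteasome, the interaction was 1.78 for Ndufb2, 1.77 for Ndufb6, 1.65 for Ndufs5, 1.72 for Uqcrq, 1.91 for Atp5e, 1.70 for Cox7b, 1.67 for Psma7 and 1.22 for Psmb6. Among enzymes of foreign compounds and steroids, the interaction was 3.97 for Akr1c19, 2.42 for Akr1c13, 1.75 for Akr1c12, 2.36 for Akr1c14, 2.54 for Ugt2b5, 1.69 for Nqo1 and 2.54 for Hsd11b1. Among genes of division, stem and secretory cells, the interaction was 1.67 for Birc5, 1.67 for Ccne1, 1.35 for Hopx, 0.98 for Smoc2, 1.89 for Mmp7, 1.86 for Spink4 and 1.91 for Ccl9. Among other genes that were higher, the interaction was 2.38 for Bcl2l15, 1.49 for Gmds, 2.42 for Chchd6, 2.38 for Hddc2, 2.40 for Ly6d, 3.75 for Ccl8, 1.47 for Cuedc2, 1.47 for Oaf, 1.07 for Pex7, 0.96 for Atg4d, 1.11 for Nr1h3, 1.44 for Tyrobp, 1.67 for Tagln, 2.25 for Slc13a1 and 1.91 for Bcmo1.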

How the results depend on the processing

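For 85 named genes the interaction was followed under every alternative but the fits that combine offsets with a library left out. Its direction held in all of these genes except Fut2. Fut2 was not called and was 0.17 without Pre 2'-FL replicate 2, within a range from -1.55 to 0.17 over the libraries left out. Of 77 called named genes, 66 were also called under each of DESeq2, RLE scaling, no filter, voom and the removal of Esp38 and Lars2, and 35 in each of the 12 fits that leave out 1 library. DESeq2 called 1408 genes higher and 1223 lower, and voom 1361 and 1363. With length and GC offsets 0 genes were called higher and 0 lower, as with offsets from curated transcripts. Offsets for length alone, added after seeing the data, left 54 and 41, and for GC alone 1194 and 1008.

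The Post difference was called in 2861 genes with both offsets and 2857 with curated transcripts. The Pre difference was called in 24 genes by DESeq2, 12 without a filter and 54 by voom. The mean of the arm differences was called in 1268 genes with both offsets, 1245 with curated transcripts, 1796 with length alone and 4368 by voom. When 1 library was left out, 264 to 1437 genes were called higher, 160 to 1587 lower, 3279 to 5384 within Post, 0 to 17 within Pre and 1179 to 3677 for the mean. With the offsets as well, which was added after seeing the data, these ranges were 0 to 461, 0 to 427, 928 to 3378, 1 to 20 and 2 to 2305. The cause was not tested.

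The replicate block gave 743 genes higher and 831 lower, with 12 called named genes lost and 1 gained. The block with offsets gave 0 and 0, 2721 within Post and 830 for the mean. The labels do not say whether same-numbered libraries share a mouse. Of 18 same-numbered pairs, which include pairs across arms, 4 correlated above 0.1 (range -0.225 to 0.419). By the same measure, 5 of 12 libraries correlated best with their own number. Between Pre and Post within an arm, r was -0.097, 0.164 and 0.056 in control and -0.118, -0.059 and 0.22 in 2'-FL. The block also joins numbers across arms, so neither it nor these values can decide the pairing. Low counts limit the estimates of Irs2, P2ry4, Dbp, Ccl8, Plin1, Fut2 and Bcmo1. For Fgf15 no interaction can be given.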
